A study of Mus musculus with 15 samples.

Results

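Ultraconserved elements are stretches of mammalian DNA that are identical in the human, mouse and rat genomes. Many of them lie in or near genes of RNA processing and development, some act as enhancers, and a number are transcribed into noncoding RNAs whose levels differ between tissues and tumours. Few of these transcripts have a described function, and little is known of most of them in the brain. The arrays analysed here carry 962 probes for such transcripts, 1 for each strand of 481 elements, among 59709 distinct non-control probes. A probe is named by its element and strand, so that uc.430+ and uc.430- read the transcripts of the 2 strands of element uc.430, and it was taken as a member when its probe code carried the design number that the ultraconserved set shares. The files give neither the probes' sequences nor the positions of the elements in the genome, and no host genes are named here.

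The study asked how noncoding and messenger RNAs change with age in the brain of APP/PS1 mice, which carry transgenes for the amyloid precursor protein and presenilin 1 and are used as a model of Alzheimer's disease. Brain RNA came from APP/PS1 mice of 1, 3, 6 and 9 months and from wild-type (WT) mice, all C57BL by their labels, with 3 arrays for each APP/PS1 age. The RNA was total RNA of the whole brain. The labels name neither the promoter of the transgenes nor the line, and none of the 23 tissue markers listed for a check of the tissue had a probe that could be named. The design text calls the WT mice age-matched but the labels give them no age, so age and genotype cannot be told apart in any comparison with WT.

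Scanner files of 14 arrays were used, 3 for each APP/PS1 age and 2 for WT. At 1, 3 and 6 months, replicates 2 and 3 were near-identical: their residuals over the copies of the negative probes correlated at 0.80 to 0.825, against at most 0.24 in all other pairs of arrays, so each such pair entered as its mean, as a single sample. The comparisons therefore rest on 11 samples: 2 each at 1, 3 and 6 months, 3 at 9 months and 2 WT. Nothing states that samples came from separate animals, so p-values measure the spread between these samples. The 9-month arrays were scanned at a detector setting of 354 V, replicate 3 of the other ages at 355 V and the remaining arrays, WT included, at 356 V, so that scan setting and age cannot be told apart at 9 months. The 75th percentile of the processed signal was 384 to 566 intensity units over the arrays, with both WT arrays (404 and 407) near the low end.

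Probes for ultraconserved elements were dim compared with the rest of the array. Of the 961 with a usable spot, 286 (29.8%) were well above background in all 11 samples and 359 (37.4%) in none. Among all other probes these shares were 62.4% and 13.4%. In all samples at once, 57 of the 961 (5.93%) exceeded the array's 75th percentile, against 21.8% of the other probes. The plus strand was above background in all samples for 145 probes and the minus strand for 141. No ultraconserved spot was saturated. In these whole-tissue samples fewer cells of a type and less RNA per cell cannot be told apart.

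The share of ultraconserved probes above background was 43.4% and 45.6% in the 1-month samples, 36.6% and 42.0% at 3 months, 45.7% and 55.6% at 6 months and 40.1%, 47.1% and 50.1% at 9 months, against 39.4% and 36.4% in WT. The 6-month samples were the highest on average, and the WT samples overlapped those at 3 months. The mean was 45.1% ± 5.58 (SD, n = 9) in APP/PS1 and 37.9% ± 2.13 (SD, n = 2) in WT, a difference of 7.2 percentage points that an exact two-sided permutation test over the 55 arrangements did not call (p = 0.109, smallest possible 0.0182). All other probes differed by 6.19 points (exact p = 0.0909), and the ultraconserved share less the share of the others differed by 1.02 points (exact p = 0.418).

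**Figure D1:**
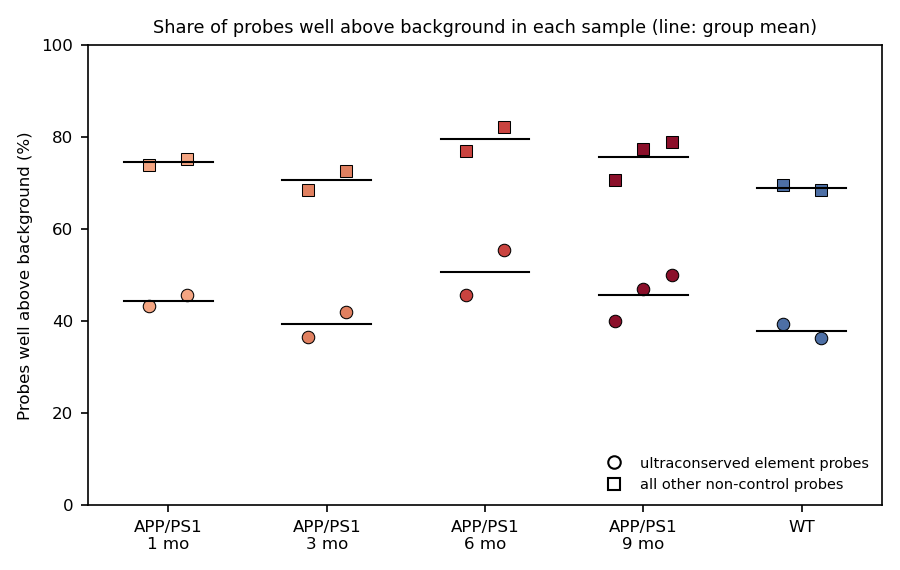
Percent of probes well above background (y axis) in each sample of the 4 APP/PS1 ages and WT (x axis), for ultraconserved element probes (circles) and all other non-control probes (squares), with lines at the group means. In every sample the ultraconserved share (36.4% to 55.6%) lies below that of the other probes (68.5% to 82.2%).

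Most elements (51.7%) had neither strand above background in all samples, and more had 1 strand above it than both. Of the 480 elements with usable probes on both strands, 53 had both strands above background in all samples, 91 the plus strand alone, 88 the minus strand alone and 248 neither. Both strands passed for 86 elements at 1 month, 69 at 3 months, 107 at 6 months and 91 at 9 months, against 67 in WT. The lowest counts were those at 3 months and in WT, the groups with the lowest share of probes above background.

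A few members crossed the background in 1 group alone. The probe uc.220- was above background on every array at 1 month and on none elsewhere. The probes uc.165+, uc.423+ and uc.311- were above background on every array at 6 months and on none elsewhere, and uc.451- was below background at 6 months alone. On 5 probes (uc.455+, uc.26+, uc.153+, uc.95- and uc.152+) every APP/PS1 array was above background and both WT arrays were below it. The shares were 0.104% of members for 1 month (0.0252% of all probes), 0.312% for presence at 6 months (0.327%), 0.104% for absence at 6 months (0.0269%) and 0.52% for absence in WT (0.448%), so the largest of these counts were near the background. With normexp correction the difference from WT turned negative for the 3 probes at 6 months and the 5 absent in WT, and uc.165+ was then called lower (log2 -0.64, adjusted p = 0.0383). These 9 probes beside uc.451- were picked by their flags. In the limma fit described below, the adjusted p of the difference from WT was 0.144 for uc.95- (mean of the 4 ages). It was 0.107 for uc.311- and 0.0725 for uc.423+ (both at 6 months). The probes uc.165+, uc.423+ and uc.311- passed the filter on dim probes, also described below, through the 6-month samples alone. That filter thus favoured a rise of these probes at 6 months, and their p-values are description only.

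Differences were tested on the log2 scale, on the processed signal relative to the array's 75th percentile, with limma fitted to all 48358 features above background in 2 or more samples and a Benjamini-Hochberg adjusted p under 0.05. Of the ultraconserved probes 509 (53.0% of those usable) passed that filter and were tested, against 81.6% of the others, and 452 were too dim. At 1 month 28 rose and 12 fell against WT, while 4.37% of all features rose and 4.14% fell. At 3 months 23 rose and 21 fell (all features 6.41% and 3.71%). At 6 months 57 rose and 27 fell (all features 12.5% and 8.44%). At 9 months 77 rose and 58 fell (all features 17.5% and 13.5%). Called members were thus 5.50%, 4.52%, 11.2% and 15.1% of the 509 upwards and 2.36%, 4.13%, 5.30% and 11.4% downwards at 1, 3, 6 and 9 months, against the shares over all features just given. Without WT replicate 1 the counts of calls were 17 at 1 month and 27 at 3 months, and without a 1-month sample 6 (replicate 1) and 12 (replicate 2) at 1 month. The 1-month count was 23 without WT replicate 2, 23 without 9-month replicate 2 and 26 without 9-month replicate 3, and the 3-month count 22 without 3-month replicate 1.

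The median log2 difference of the tested members from WT was 0.10 at 1 month, -0.01 at 3 months, 0.15 at 6 months and 0.14 at 9 months, where the median of all features was 0.01, 0.02, 0.07 and 0.05. The balance of rises and falls differed in the normexp run, which changed the background correction, took the median spot signal and added an offset of 50. These changes were not tested apart. With normexp correction in place of the scanner software's, 6 rose and 38 fell at 1 month, 9 and 15 at 3 months, 21 and 107 at 6 months and 27 and 138 at 9 months. The called share was then 8.64%, 4.72%, 25.1% and 32.4% of members, against 8.08%, 4.67%, 25.6% and 36% of all features. That correction moved the median of all features by more than 0.1, to -0.24, -0.16, -0.25 and -0.25 at the 4 ages, and the members' median to -0.38, -0.27, -0.38 and -0.36. With quantile normalization 20 rose and 14 fell at 1 month, 18 and 27 at 3 months, 42 and 32 at 6 months and 64 and 60 at 9 months, which is 6.68%, 8.84%, 14.5% and 24.4% of members, against 7.55%, 10%, 19.9% and 31.1% of all features. Members called at 9 months and above background in all samples kept their direction under normexp in 91 of 98 cases, and the other called members in 10 of 37.

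**Figure D2:**
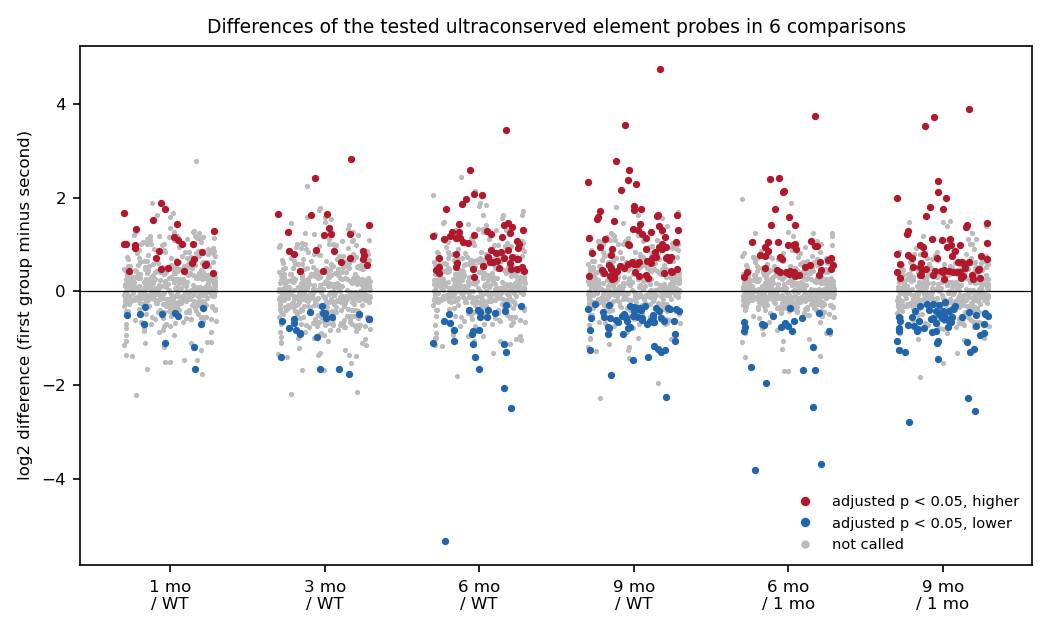
Log2 difference (y axis) of the 509 tested ultraconserved probes in 6 comparisons (x axis, first group minus second), with red and blue points for those past an adjusted p of 0.05 (higher and lower) and grey points for the rest. The differences run from -5.34 (uc.451-) to 3.44 (uc.430-) at 6 months against WT and from -2.27 to 4.75 (uc.430-) at 9 months; under normexp correction most called points against WT lie below 0.

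The member with the largest rise was uc.430-. Its signal was 51.4 and, in the averaged pair, 51.7 and 49.1 intensity units at 1 month, 57.9, 77.4 and 67.0 at 3 months, 272, 290 and 298 at 6 months and 696, 722 and 735 at 9 months, against 17.6 and 25.2 in WT. No group overlapped another, the APP/PS1 ages followed each other in order, and 1 of the 2 WT arrays was not well above background. On the scaled log2 values the means were -3.24 ± 0.06, -2.61 ± 0.17 and -0.83 ± 0.16 (SD, n = 2 each) at 1, 3 and 6 months and 0.48 ± 0.04 (SD, n = 3) at 9 months, against -4.26 ± 0.36 (SD, n = 2) in WT. The log2 difference from WT was 1.02 at 1 month (adjusted p = 0.012), 1.65 at 3 months (0.00122), 3.44 at 6 months (2.43e-05) and 4.75 at 9 months (SE 0.15, 2.91e-06). With normexp correction it was -0.22, 0.28, 1.35 and 2.52 at these ages, past the threshold at 6 and 9 months.

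The opposite strand was measured at 6 and 9 months alone. The values of uc.430+ were -7.17 and -7.07 at 1 month, -6.62 and -6.96 at 3 months, -4.88 and -4.51 at 6 months and -3.37, -3.21 and -3.09 at 9 months, against -6.84 and -6.74 in WT. All arrays at 6 and 9 months were above background and none at 1 month, 3 months or in WT, so differences from those groups are bounds: a probe below background is counted at no less than the dimmest signal its array called above background. At 9 months uc.430+ was at least 3.09-fold higher than at 1 month (fitted log2 3.9, adjusted p = 3.88e-06) and at least 2.45-fold higher than in WT (fitted log2 3.56, 8.34e-06). Here and below, an adjusted p beside a bound is that of the fitted difference, and the bound itself was not tested. With normexp correction the difference from 1 month was 0.90 (adjusted p = 0.00841). The rise from WT at 6 months (fitted log2 2.09) turned to -0.31 with normexp correction, and that at 9 months was 0.26 with it (adjusted p = 0.286).

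At 1 month the other leading members that rose were dim. The probes uc.121-, uc.425+, uc.324+ and uc.58- were above background on all 3 arrays at 1 month and on neither WT array, and were at least 1.17-, 2.76-, 1.29- and 1.74-fold higher than in WT (limma adjusted p 0.0153 to 0.0393). The fifth, uc.273+, passed on 1 of 3 arrays. With normexp correction all 5 changed sign and none passed the threshold, so their direction differed between these 2 ways of processing. The normexp run also differs in its spot signal (median) and its offset of 50, and these were not tested apart. Of the leading falls all but uc.2- were measured in both groups. The probe uc.451- was at -3.37 and -3.82 at 1 month, against -1.80 and -2.06 in WT, a log2 difference of -1.66 (SE 0.20, adjusted p = 0.00322). For uc.403+ the difference was -1.11, for uc.452- -0.70 and for uc.414- -0.69, and uc.2- (at least 1.36-fold) was below background on all 1-month arrays and on 1 of 2 WT arrays. The call of uc.2- was lost without any 1 of the WT or 1-month samples, that of uc.403+ without WT replicate 1, either 1-month sample or 9-month replicate 2, and that of uc.452- without 1-month replicate 1.

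At 3 months uc.377+ was at -3.17 and -2.72, against -6.41 and -5.11 in WT, where it was below background. It was at least 2.97-fold higher (adjusted p = 0.00478), and 2.55-fold at 6 months and 2.93-fold at 9 months were the bounds there. With normexp correction its log2 difference was 0.28, 0.01 and 0.18 at 3, 6 and 9 months, with no call. The probes uc.455+ (at least 2.87-fold), uc.176+ (at least 1.43-fold) and uc.273+ (at least 1.33-fold) also rose at 3 months. Under normexp uc.176+ and uc.273+ turned sign and uc.455+ lost its call (log2 0.13, adjusted p = 0.666), which it also lost without either WT sample and without 3-month replicate 1. The fall of uc.451- at 3 months, to -3.83 and -3.33 against -1.80 and -2.06 in WT, had a log2 difference of -1.65 (SE 0.20, adjusted p = 0.00245). The probe uc.178+ fell by 1.65 and was above background on 1 of 3 arrays, and it lost the call without either WT sample. The probe uc.239- fell below background on all 3 arrays, at least 1.34-fold (lost with normexp, without WT replicate 1 and without 3-month replicate 1), and uc.22+ and uc.365- were below background in both groups.

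At 6 months the largest fitted difference of any member from WT was the loss of uc.451-, a rank that rests on values below background. This probe was at -7.24 and -7.31, below background on all 3 arrays, against -1.80 and -2.06 in WT. It was at least 9.69-fold lower (fitted log2 difference -5.34, SE 0.20, adjusted p = 6.32e-06). At 9 months the same probe was at -2.16, -2.20 and -2.18, a log2 difference of -0.25 from WT that was not called (adjusted p = 0.337). Its partner uc.451+ differed within groups: 15.5 intensity units in replicate 1 and 120 on both averaged arrays at 1 month.

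Among the leading falls at 6 months of probes above background in WT, the second was uc.162+, at -3.20 and -2.94, against -1.08 and -0.91 in WT. Its log2 difference was -2.07 (SE 0.11, adjusted p = 2.59e-05), and against 1 month, where it was at -0.59 and -0.62, it was -2.47 (7.4e-06). Its lowest level among the 4 ages was at 6 months, with no overlap between any 2 groups. The probe uc.214+ fell by 1.41 against WT and by 1.96 against 1 month, and the call against WT was lost without either WT sample. Of the other leading falls, uc.220- and uc.22+ were below background in both groups. Among the rises beside uc.430 and uc.377+, uc.284+ was at -2.46 and -1.88, against -3.66 and -4.63 in WT (log2 1.98, adjusted p = 0.0276, lost without either 6-month sample, without WT replicate 2 and with normexp), and uc.235+ rose at least 1.29-fold with its sign turned under normexp.

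At 9 months several members that were above background in all samples fell. The probe uc.308- was at 0.12, 0.37 and 0.56, against 2.27 and 2.00 in WT, a log2 difference of -1.79 (SE 0.20, adjusted p = 0.000732). The probe uc.12- was at -1.55, -1.59 and -1.45, against -0.15 and 0.02 in WT, a difference of -1.46 (SE 0.09, adjusted p = 4.24e-05). The probe uc.418+ was at -1.25, -1.24 and -1.29, against -0.05 and 0.13 in WT, a difference of -1.30 (SE 0.19, adjusted p = 0.00198). In these 3 the 9-month samples lay below every sample of the other ages and of WT. The calls of uc.308-, uc.12- and uc.418+ held in every alternative run, between -1.93 and -1.12, while those of uc.181+ and uc.379+ were lost in 11 and 8 alternatives.

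Of the rises at 9 months, uc.176+ was at -3.10, -3.34 and -3.36, against -5.74 and -5.57 in WT, at least 2.38-fold higher (adjusted p = 7.45e-05), with a log2 difference of -0.02 under normexp. The probe uc.327- was at -2.78, -4.39 and -5.19, above background on 2 of 3 arrays, and changed sign under normexp. It passed the filter through the 9-month samples alone, so the filter favoured this rise. Its call was lost without either WT sample. Since the 9-month arrays alone were scanned at 354 V, the scan setting and age cannot be told apart in these differences.

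**Figure D3:**
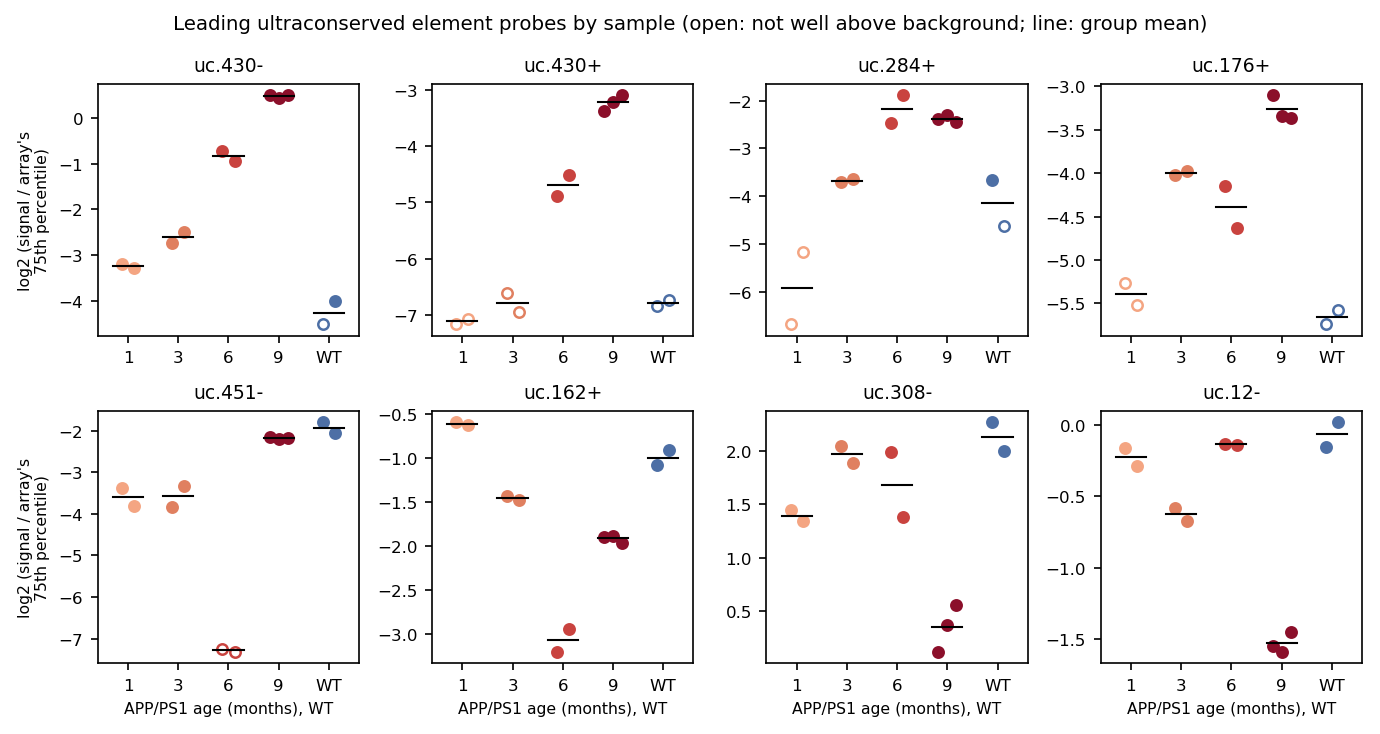
Log2 of the processed signal relative to the array's 75th percentile (y axis) in each sample, by APP/PS1 age in months and in WT (x axis), for 8 leading probes; open circles were not well above background and lines are group means. Both strands of uc.430 are highest at 9 months, uc.451- is below background at 6 months, uc.162+ is lowest at 6 months, and uc.308- and uc.12- are lowest at 9 months; the rises of uc.176+ and, at 6 months, uc.430+ from WT turn with normexp correction.

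Averaged over the 4 ages with equal weight, 51 members rose and 22 fell against WT, where 9.42% of all features rose and 6.07% fell. With normexp correction these counts were 18 and 168 (36.5% of members, against 30.4% of all features), with quantile normalization 35 and 26 (12%, against 13.9%), and 34 probes were called without WT replicate 1 and 39 without WT replicate 2. Beside uc.430- (log2 2.71, adjusted p = 4e-05) the largest rises were those of uc.377+, uc.121-, uc.273+ and uc.176+, all 4 below background in WT and all 4 with the sign turned under normexp. The largest falls were uc.451- (-2.22), uc.239- (-0.60), uc.414- (-0.52), uc.452- (-0.46) and uc.188- (-0.40). Of these, uc.414- was at 3.86 to 4.26 in the 9 APP/PS1 samples, against 4.55 and 4.58 in WT (SE 0.07, adjusted p = 0.00385), and uc.188- at 4.95 to 5.82, against 5.82 and 5.90 in WT. The calls of uc.239-, uc.452- and uc.188- were lost without either WT sample.

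Most members that were called moved at 1 or 2 ages. Of the 509, 329 were called at no age against WT, 96 at 1 age, 53 at 2, 23 at 3 and 8 at all 4 (64.6%, 18.9%, 10.4%, 4.52% and 1.57%, against 57.6%, 23.5%, 11.7%, 5.26% and 1.96% of all features). These 4 comparisons share their WT samples. Called higher at every age were uc.430-, uc.101-, uc.152+, uc.475-, uc.26+ and uc.273+, and called lower at every age was uc.414-. This count of 6 and 1 was chosen after their values were seen (1.18% and 0.196%, against 1.13% and 0.23% of all features). Of these, uc.101- was above background in all samples, at -0.26 and -0.41 at 1 month, 0.41 and 0.63 at 3 months, 0.02 and 0.13 at 6 months and 0.54, 0.33 and 0.37 at 9 months, against -0.76 and -0.92 in WT. Its log2 differences were 0.51, 1.36, 0.92 and 1.26, and with normexp 0.31, 1.03, 0.70 and 0.98. Its call at 1 month was lost in 13 of 21 alternatives, among them normexp (adjusted p = 0.109) and leaving out either WT or either 1-month sample. The call of uc.414- was lost with normexp at 6 and 9 months, and at 6 months also without either WT sample. On all arrays of 6 months and WT uc.273+ was below background, so its called difference at 6 months has no order. At 1 month it passed on 1 of 3 arrays. The probes uc.152+, uc.26+ and uc.273+ turned sign under normexp at all 4 ages, and 15 members (2.95%, against 3.94% of all features) were higher at one age and lower at another.

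Among the APP/PS1 ages alone, 45 members rose and 23 fell at 6 months against 1 month (all features 12.9% and 9.27%), and 65 rose and 59 fell at 9 months against 1 month (all features 17.9% and 15%). The F test over the 4 ages called 154 members, 30.3%, against 42.1% of all features. With normexp correction the counts were 21 and 16, 34 and 30, and 91, and every one of the 124 members called between 9 months and 1 month kept its direction. The called shares were then 7.27%, 12.6% and 17.9% of members, against 14%, 21.9% and 27.6% of all features. Without 1-month replicate 1 the count between 9 months and 1 month was 82, and without replicate 2 it was 71. Beside both strands of uc.430, uc.284+ rose. It was at -2.46 and -1.88 at 6 months and at -2.38, -2.29 and -2.45 at 9 months, against -6.68 and -5.16 at 1 month, where it was below background. It was at least 6.42-fold higher at 6 months (adjusted p = 0.00147) and at least 5.56-fold at 9 months (0.000953). At 3 months it was at -3.71 and -3.64, between these groups.

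Other members that rose between these ages were uc.403+, at -1.94 and -1.85 at 6 months, against -4.21 and -3.83 at 1 month (log2 2.13, SE 0.23, adjusted p = 0.000553), uc.213- (at least 1.88-fold at 6 months), uc.289+ (at least 1.14-fold at 9 months) and uc.176+ (at least 3.00-fold at 9 months). Of these, uc.289+ passed the filter through the 9-month samples alone, so the filter favoured its rise. The calls of uc.213-, uc.289+ and uc.176+ were lost with normexp (adjusted p = 0.296, 0.264 and 0.0768), and that of uc.213- also without 1-month replicate 2. Those that fell were uc.197+, at -2.84 and -2.90 at 6 months, against -1.21 and -1.19 at 1 month (log2 -1.67, SE 0.14, adjusted p = 0.00017), uc.214+, uc.162+ and uc.451- at 6 months, and uc.12- (-1.30), uc.43- (at least 1.05-fold, with a log2 difference of -0.15 and adjusted p = 0.696 under normexp) and uc.6- (-1.45, lost in 11 alternatives) at 9 months. The probe uc.220- was at -7.45 and -7.62 at 6 months and -6.05, -6.20 and -6.61 at 9 months, against -3.23 and -4.23 at 1 month, at least 2.79- and 2.23-fold lower (adjusted p = 0.000173 and 0.000606, lost with normexp at 0.176 and 0.27). It passed the filter through the 1-month samples alone, so the filter favoured these falls and the p-values are description only. The probe uc.183- was at -1.98, -1.92 and -4.66 at 9 months, against -0.01 and -0.13 at 1 month (log2 -2.78, adjusted p = 0.0238). Replicate 3 at 9 months lay far below the other 2 samples, and the call was lost without either 1-month sample.

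Of the 154 members called by the F test, 39 were highest at 1 month, 29 at 3 months, 43 at 6 months and 43 at 9 months (25.3%, 18.8%, 27.9% and 27.9%, against 25%, 19.4%, 22.7% and 32.9% of all called features). Their means rose at every step in 9 (5.84%, against 10.9% of all called features) and fell at every step in 13 (8.44%, against 7.90%). The widest fitted ranges among the rising members were those of uc.430+, uc.430- and uc.289+ (log2 2.36), and among the falling ones uc.453- (1.1), uc.194- (0.88) and uc.240- (0.86). The falling probe uc.240- was at -0.28 and -0.26 at 1 month, -0.46 and -0.42 at 3 months, -0.86 and -0.99 at 6 months and -1.14, -1.19 and -1.07 at 9 months, without overlap between ages. In uc.154 the means of both strands rose at every step, and in uc.293 both fell, with all samples above background. The means from 1 to 9 months were 1.29, 1.18, 1.17 and 0.75 for uc.293- and -1.32, -1.38, -1.42 and -1.82 for uc.293+. The widest step of both was thus at 9 months, the age with its own scan setting. With normexp correction the F-test call of uc.293+ was lost (adjusted p = 0.0609). The probe uc.154+ at 9 months (4.98) was near WT (4.93). The steps of uc.430+ between 1 and 3 months and of uc.289+ up to 6 months lie between values below background and have no order.

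The 2 strands of an element were compared where both were tested, in 155 elements. Against WT both strands were called in 2 elements at 1 month, 2 at 3 months, 7 at 6 months and 14 at 9 months. Of all tested members 7.86%, 8.64%, 16.5% and 26.5% were called at these ages, and of all features 8.51%, 10.1%, 20.9% and 31%. The count of both-strand calls expected from these shares was not computed. The strands moved the same way in all elements with both called at 1, 3 and 6 months and in 9 of 14 at 9 months. Under normexp the 6-month strands of uc.186, uc.58, uc.360, uc.367 and uc.430 had opposite signs, as did the 9-month strands of uc.367 and uc.455. The plus strand of uc.22 was below background in both groups at 6 months. Across the 155 elements Pearson's r between the strands' log2 differences was 0.06, -0.01, 0.19 and 0.29 at 1, 3, 6 and 9 months, a description over elements whose strands share arrays and scaling. At 9 months against 1 month both strands were called in 17 elements, 13 in the same direction, where 24.4% of members and 32.8% of all features were called.

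After uc.430 the widest joint rise was that of uc.367. Its plus strand was at 0.52 and 0.34 at 6 months and 0.35, 0.20 and 0.27 at 9 months, against -0.89 and -0.88 in WT (log2 1.32 and 1.16, adjusted p = 0.000103 and 0.000102). Its minus strand, below background in WT, had fitted log2 differences of 1.76 and 1.64, which turned to -0.44 and -0.33 with normexp. Both strands of uc.162 fell at 6 months (-2.07 and -0.39) and at 9 months (-0.91 and -0.38), and the call of the minus strand was lost in 16 and 6 alternatives. With normexp neither strand of uc.162 was called at 9 months (log2 -0.22 and -0.33, limma adjusted p = 0.367 and 0.0683). The elements with opposite strands at 9 months were uc.473, uc.327, uc.420, uc.239 and uc.74. In uc.74 the plus strand was at -4.65, -3.79 and -4.34, against -5.14 and -6.17 in WT, and the minus strand at -0.08, -0.37 and -0.26, against 0.55 and 0.52 in WT. Under normexp the rising strand turned sign in uc.473, uc.327, uc.239 and uc.74, and neither strand of uc.420 was called (log2 0.04 and -0.22, adjusted p = 0.792 and 0.0842). The call of uc.420- was lost in 11 alternatives and that of uc.420+ also without WT replicate 2.

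**Figure D4:**
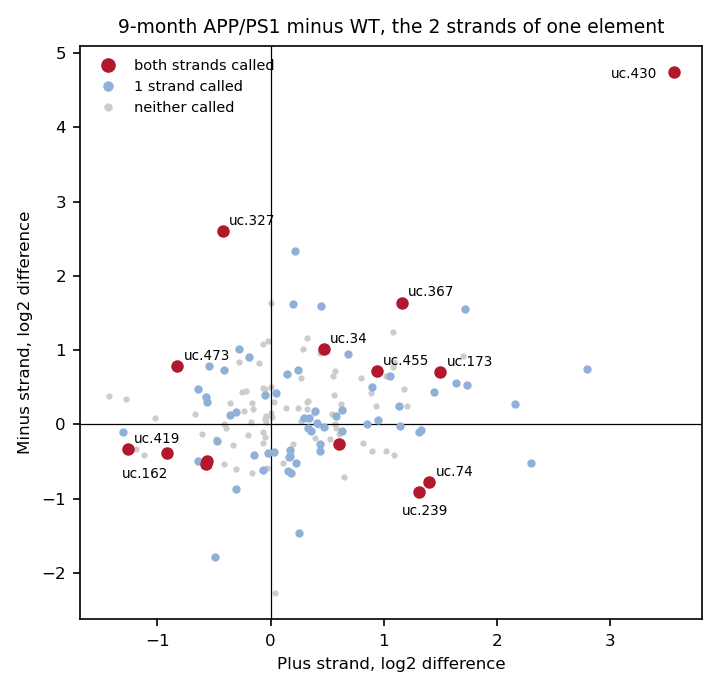
Log2 difference between 9-month APP/PS1 and WT for the plus strand (x axis) and the minus strand (y axis) of the 155 elements with both strands tested, coloured by how many strands were called. Element uc.430 stands alone at 3.56 and 4.75, and 9 of the 14 red points have both strands on the same side of 0. With normexp correction the rising strand of uc.473, uc.327, uc.239 and uc.74 turns, as do uc.367- and uc.455+.

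Elements with a transcript described in human or mouse cells formed a list of 15, with 30 probes. Of these 17 were tested, 11 were above background in all samples and 11 in none, among them both strands of uc.8, uc.283 and uc.388. Against WT 1 probe of the 17 rose at each of 1, 3 and 6 months and 3 rose at 9 months, against the shares of all features given above. Their median log2 difference was 0.13, 0.24, 0.10 and 0.20 at 1, 3, 6 and 9 months. At 9 months against 1 month 4 rose and 1 fell (all features 17.9% and 15%), and at 6 months against 1 month 1 fell (9.27%).

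The probe called at every age was uc.475-, on the strand of an element whose human transcript is induced by low oxygen in cancer cells, although which strand carries that transcript was not examined. It was at -2.43 and -2.57 at 1 month, -2.57 and -2.69 at 3 months, -2.26 and -2.43 at 6 months and -1.87, -1.86 and -1.91 at 9 months, against -3.54 and -3.45 in WT. Every APP/PS1 sample was above both WT samples, and the 9-month samples were above all others. The log2 differences were 0.99, 0.87, 1.15 and 1.62 (SE 0.09 each, adjusted p = 0.00117, 0.00159, 0.000211 and 2.44e-05). With normexp correction they were 0.03, 0.09, 0.12 and 0.44, none past the threshold. The plus strand, uc.475+, was not called at any age, with log2 differences of 0.50, 0.38, 0.36 and 0.20.

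Both strands of uc.173, an element whose mouse transcript affects renewal of the gut epithelium through a microRNA, rose at 9 months. The plus strand was at 1.94, 2.02 and 2.20 at 9 months, against 0.60 and 0.51 in WT, and at 0.40 to 1.06 in the 6 samples of the younger ages. It rose by 1.5 against WT (SE 0.11, adjusted p = 0.000125) and by 1.13 against 1 month (0.000347), and by 1.54 and 1.12 with normexp. In intensity units it was at 1870, 2150 and 2390 at 9 months, against 613 and 579 in WT. The minus strand rose by 0.71 against WT (adjusted p = 0.00621) and by 0.29 with normexp (0.126).

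The other described elements were called in fewer comparisons. The probe uc.338+, of an element whose human transcript promotes growth of liver cancer cells, was at -1.96 and -1.93 at 6 months and -1.96, -1.82 and -1.85 at 9 months, against -1.36 and -1.29 at 1 month (log2 -0.62 and -0.56, adjusted p = 0.0435 and 0.0351). The WT samples, at -1.29 and -1.90, spanned these groups, and the calls were lost in 13 and 7 alternatives. The probe uc.138+, of an element in the splicing factor gene TRA2B in human, rose by 1.00 at 9 months against 1 month (adjusted p = 0.0113), a call lost without 1-month replicate 2 and with normexp. The mean of the 4 ages was higher than WT for uc.338- by 0.96 (adjusted p = 0.0387), a call lost in 13 alternatives and reversed with normexp. The probe uc.417+, of an element whose mouse transcript acts in brown fat, was at 2.69 and 1.43 at 1 month, 2.41 and 1.47 at 3 months, 2.50 and 1.22 at 6 months and 2.02, 1.80 and 1.83 at 9 months, against 1.1 and 1.37 in WT. Its log2 differences from WT were 0.82, 0.71, 0.63 and 0.65 (adjusted p 0.355 to 0.451), with most of the spread lying between the 2 samples of an age.

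**Figure D5:**
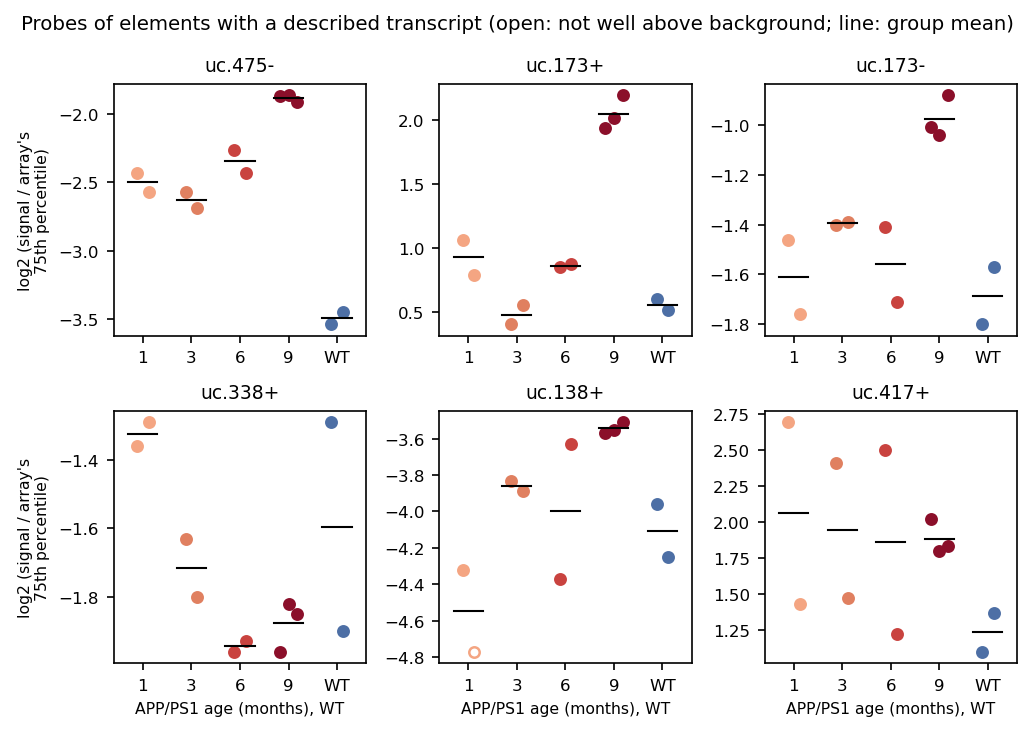
Log2 of the processed signal relative to the array's 75th percentile (y axis) in each sample by APP/PS1 age in months and in WT (x axis), for 6 probes of elements with a described transcript; open circles were not well above background and lines are group means. All 9 APP/PS1 samples of uc.475- lie above both WT samples, uc.173+ and uc.173- are highest at 9 months, and uc.417+ splits within the 1-, 3- and 6-month groups.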

How the data were processed

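Cy3-labelled cRNA from brain was read on Agilent arrays with a single colour, per the labels' protocols. The authors took spot intensity from the scans in Feature Extraction (version 10.7.1.1), per the submitters' processing notes, and the deposited processed signal is background-subtracted, per the file headers. The deposited flags (other values, 0 or 1) mark spots well above background. The deposited value table equals the local background intensity within 0.001 in the 14 columns checked and was not used. No scanner file was used for the third WT sample. Replicate 1 of each group is labelled male and the rest female, while the design text speaks of males.

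The log2 of the processed signal less the array's 75th percentile was computed, near-identical arrays (residual correlation above 0.5) were averaged, and 134 probes whose only spot was marked as non-uniform were dropped, 1 of them a member. Features above background in 2 or more samples were fitted over all 5 groups with limma 3.58.1 in R 4.3.3, tested on simulated data first. The number of arrays limits the precision. Members and lists were chosen with earlier results of these data known. Text names, per comparison, the 5 largest rises and 5 largest falls called without overlap between samples, the 6 widest F-test ranges and the list of described elements. Probes outside that rule were chosen after their values were seen. Alternatives are given in the closing section. The files hold no mean spot signal, so normexp (offset 50) used the median spot signal.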

Additional observations from a re-analysis of the deposited data

Results flagged for a closer look

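In these members the fitted difference from WT had opposite signs at 2 ages, each called, and the difference between the ages was tested in the same limma fit. The probe uc.403+ was higher than WT at 6 months (log2 1.02) and lower at 1 month (-1.11), a difference of 2.13 between the ages (adjusted p = 0.000553). The probe uc.220- was above background at 1 month alone, so its fitted differences from WT at 6 months (-2.48) and 9 months (-1.23) lie between values below background and have no order, and that at 1 month was 1.33. Its fitted difference between the ages was -3.81 at 6 months (adjusted p = 0.000173) and -2.56 at 9 months (0.000606), and both calls were lost with normexp (0.176 and 0.27). This probe passed the filter through the 1-month samples alone, so the filter favoured both calls. The probe uc.197+ was lower than WT at 6 months (-1.10) and higher at 1 month (0.58), a difference of -1.67 (adjusted p = 0.00017). The probe uc.184- was called at all 4 ages with alternating sign, at 0.39, -0.55, 0.64 and -0.53 against WT at 1, 3, 6 and 9 months, and differed by -0.93 between 9 months and 1 month (adjusted p = 0.000187). No cause of these patterns was tested.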

How the results depend on the processing

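Of 162 results on named probes, 43 were called in the same direction in every alternative run. In at least 1 of the 21 other settings 106 kept their sign without a call, and 44 changed sign. These last 2 counts overlap. Among the 162 were results not called in the main fit, such as those of uc.95-, uc.311- and uc.423+. With 14 arrays as separate samples the calls numbered 94 at 1 month, 101 at 3 months and 150 at 6 months, 119 for the mean of the ages, 122 between 6 months and 1 month and 240 in the F test. These were 18.5%, 19.8%, 29.5%, 23.4%, 24% and 47.2% of members, against 22%, 21.6%, 34.9%, 26%, 37.4% and 61.1% of all features. With separate arrays, no 9-month group and the scan setting as a block the calls numbered 74, 75 and 133 at 1, 3 and 6 months and 113 between 6 months and 1 month, and with averaged samples and no 9-month group 14 at 1 month. That is 14.5%, 14.7%, 26.1%, 22.2% and 2.75% of members, against 15.7%, 16.2%, 29.6%, 34.9% and 3.91% of all features. Fits of the compared groups alone, with fewer samples, gave 0 at 1 month, where 109 had an unadjusted limma p under 0.05. They gave 2 at 3 months, 19 at 6 months, 3 for the mean and 20 between 6 months and 1 month. The called shares in these fits were 0%, 0.393%, 3.73%, 0.589% and 3.93% of members, against 0.242%, 0.391%, 3.1%, 0.62% and 5.57% of all features. At 1 month the fit of all 5 groups with normexp correction called 44 members (8.64%, against 8.08% of all features). With no filter on dim probes 155 were called at 6 months (55 higher, 100 lower), 16.1% of members against 17.1% of all features. With normexp correction 24 were called at 3 months, 128 at 6 months, 186 for the mean, 37 between 6 months and 1 month, 64 between 9 months and 1 month and 91 in the F test. Its called shares were 4.72%, 25.1%, 36.5%, 7.27%, 12.6% and 17.9% of members, against 4.67%, 25.6%, 30.4%, 14%, 21.9% and 27.6% of all features. The cause of these changes was not tested. Leaving out 1 sample at a time gave 6 to 41 calls at 1 month, 22 to 48 at 3 months, 62 to 83 at 6 months, 92 to 144 at 9 months, 34 to 78 for the mean, 46 to 71 between 6 months and 1 month, 71 to 134 between 9 months and 1 month and 128 to 182 in the F test, and a difference in the share above background of 5.69 to 8.71 points. With label sex as a covariate (replicate 1 of each group is labelled male) the calls numbered 33, 41, 88 and 132 at 1, 3, 6 and 9 months and 150 in the F test, and 13 of the 162 results lost the call, among them uc.121-, uc.324+ and uc.101- at 1 month and uc.181+ at 9 months. The called shares with this covariate were 6.48%, 8.06%, 17.3%, 25.9% and 29.5% of members, against 7.97%, 9.54%, 20.7%, 30.7% and 41.3% of all features. No paired analysis was possible because the replicate numbers were given in accession order and pair no samples.

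Normexp correction turned the sign of 44 of the 162 results, and no other setting turned any; the log2 difference under it follows each name. At 1 month against WT these were uc.121- (-0.353), uc.273+ (-0.455), uc.425+ (-0.00666), uc.324+ (-0.43), uc.58- (-0.215), uc.152+ (-0.479), uc.430- (-0.215) and uc.26+ (-0.342). At 3 months against WT these were uc.273+ (-0.0897), uc.176+ (-0.126), uc.152+ (-0.105) and uc.26+ (-0.158). At 6 months against WT these were uc.430+ (-0.309), uc.235+ (-0.477), uc.152+ (-0.417), uc.26+ (-0.321), uc.273+ (-0.641), uc.186+ (-0.0168), uc.58- (-0.359), uc.360+ (-0.0938), uc.367- (-0.437), uc.165+ (-0.637), uc.423+ (-0.541) and uc.311- (-0.593). At 9 months against WT these were uc.327- (-0.157), uc.176+ (-0.0168), uc.152+ (-0.402), uc.26+ (-0.243), uc.273+ (-0.434), uc.473- (-0.379), uc.239+ (-0.0488), uc.74+ (-0.369), uc.455+ (-0.199) and uc.367- (-0.329). In the mean of the 4 ages these were uc.377+ (-0.00127), uc.121- (-0.28), uc.273+ (-0.405), uc.176+ (-0.325), uc.338- (-0.174), uc.455+ (-0.196), uc.26+ (-0.266), uc.153+ (-0.238), uc.95- (-0.285) and uc.152+ (-0.351). The cause was not tested.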

Other observations

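The array labelled male differed from the others of its group in a like way at the younger ages. Over the 509 tested members, Pearson's r between the male-minus-female log2 differences of 2 groups was 0.34 for 1 and 3 months, 0.47 for 1 and 6 months and 0.39 for 3 and 6 months. It was -0.03 to 0.14 between 9 months and these ages and -0.22 to -0.04 between WT and any age. At 1, 3 and 6 months the female-labelled value is the mean of a near-identical pair, so each difference there rests on 2 samples. Members with this pattern, picked after their values were seen, include uc.417+ and uc.160-. The probe uc.160- was at -3.71, -3.91 and -4.31 in the male-labelled sample of 1, 3 and 6 months, against -2.42, -2.47 and -2.42 in the other sample of these ages. At 9 months it was at -2.68, -2.63 and -2.52, and in WT at -2.54 and -2.44, where male- and female-labelled samples lay close together.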
